A study of Mus musculus with 23 samples.

Results

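Sat1, the gene of spermidine/spermine N1-acetyltransferase, was followed with 8 other genes of polyamine metabolism in the left ventricle of mice that had inhaled e-cigarette aerosol or filtered air. The 9 genes are Sat1 and Smox, which act in polyamine breakdown, Odc1, Amd1, Srm and Sms, which act in synthesis, and Oaz1, Oaz2 and Azin1, which regulate the product of Odc1. They were chosen by name, were read by gene identifier (ENSMUSG00000025283 for Sat1 and ENSMUSG00000011179 for Odc1), and make up 9 of the 49315 genes in the deposited table of read counts. Sat1 was named with results of these samples in view. It is 1 of 43 genes under an adjusted p of 0.05 in the authors' deposited table of nicotine against air at the older starting age, so its levels and fold changes are given as a description with no test.

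RNA sequencing was done on left ventricle tissue of FVB mice in 23 libraries. Exposure in every group took 3 months, with 4 hours on each of 5 days per week, and the groups differed in the age at the start and in what was inhaled. From a start at 3 weeks of age there were 4 libraries of filtered air (numbered 1, 2, 4 and 5), 3 of e-cigarette vehicle aerosol (1, 2 and 4) and 4 of vehicle with nicotine (2, 3, 5 and 6). From a start at 3 months there were 4 of air (1, 2, 4 and 5), 4 of vehicle and 4 of vehicle with nicotine (1 to 4 in both). The labels name no genetic change, sex or batch and give neither the composition of the vehicle nor the nicotine dose. Because every exposure lasted equally long, the ages at the start and at the end cannot be told apart, nor can either from an unlabelled batch between the starts. The labels do not state that libraries of a group come from separate animals, so p-values reflect only the variation among samples, part or all of which may be technical.

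Polyamines are small positively charged molecules that bind nucleic acids and ion channels, and cells keep them within narrow limits. Ornithine decarboxylase, made from Odc1, forms putrescine, and the synthases made from Srm and Sms extend it to spermidine and spermine with aminopropyl groups that depend on the decarboxylase made from Amd1. Spermidine/spermine acetyltransferase, made from Sat1, marks polyamines for oxidation or export, and is the inducible, rate-limiting step of breakdown, while the oxidase made from Smox converts spermine directly to spermidine. Antizymes, made from Oaz1 and Oaz2, bind ornithine decarboxylase and send it to the proteasome, and the antizyme inhibitor made from Azin1 competes for them. Transcript levels, as measured here, leave out much of this control, since antizyme translation and acetyltransferase stability respond to polyamines themselves.

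The sequences before the start sites of Sat1 and Odc1 are shown because their transcripts had lower means than air in both aerosol groups of the younger start and parted with vehicle aerosol at the older start. Each is the 250 bases upstream of the start in RefSeq (build GRCm38.p6), written 5′ to 3′ on the gene's own strand, with capitals on motif matches. Sat1 lies on the minus strand of chromosome X, at chrX:155216450-155216699 for this stretch, and Odc1 on the plus strand of chromosome 12, at chr12:17544623-17544872.
Sat1: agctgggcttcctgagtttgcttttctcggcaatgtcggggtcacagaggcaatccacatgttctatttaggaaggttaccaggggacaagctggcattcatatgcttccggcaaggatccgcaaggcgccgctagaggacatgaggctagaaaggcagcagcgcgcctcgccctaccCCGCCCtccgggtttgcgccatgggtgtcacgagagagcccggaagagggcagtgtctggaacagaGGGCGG
Odc1: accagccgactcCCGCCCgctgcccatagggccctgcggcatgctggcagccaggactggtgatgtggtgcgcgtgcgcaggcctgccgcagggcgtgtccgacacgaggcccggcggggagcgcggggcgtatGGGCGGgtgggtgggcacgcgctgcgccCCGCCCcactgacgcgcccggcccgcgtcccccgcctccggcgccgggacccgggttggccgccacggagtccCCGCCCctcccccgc

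The capitals mark GC boxes (GGGCGG on either strand), of which Sat1 held 2 and Odc1 4 in these windows. At least 1 GC box was present in 32.9% of 27025 promoter windows of the same length. The other motifs were searched on both strands too, and 0 of them was in the Sat1 or Odc1 window. AP-1 (TGANTCA) was in 6.87% of windows, the cyclic AMP element (TGACGTCA) in 1.62% and a composite CEBP-ATF element (TGATGCAA) in 0.818%. An E-box (CACGTG) was in 6.05% of them, and a TATA box (TATAAA) in 13.0%. The NF-kB motif was in 0.337%, an antioxidant element (TGACNNNGC) in 10.1% and the polyamine-responsive element (TATGACTAA) in 0.104%. The Odc1 window was 80.0% G and C and the Sat1 window 59.6%, against a median of 52.0% over all windows. The antioxidant and cyclic AMP motifs can overlap in their first letters, and a match or its lack describes only these letters in this window.

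Per kilobase of exon, antizyme transcripts were the most abundant of the 9. On this scale Oaz1 was at 137 ± 8.42 and Oaz2 at 45.6 ± 3.24 CPM per kb (mean ± SD over 23 libraries; CPM is the count normalised to library size, with TMM scaling). Sat1 (24.4 ± 10.8), Odc1 (21.5 ± 7.13) and Amd1 (18.4 ± 2.51) followed, with SDs wide enough that these neighbours in the order overlap. Azin1 (11.2 ± 3.42), Sms (10.1 ± 1.44), Srm (8.29 ± 0.893) and Smox (7.06 ± 1.1) were lowest, with Azin1 and Sms within 1 SD of each other. All 9 passed the filter on low counts, with 141 counts of Srm as the lowest value of any of the genes in any library. Sat1 varied most, from 329 to 2051 counts.

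Library totals ran from 12297955 to 17821550 counts. The summed markers of ventricular cardiomyocytes, namely Myl2, Myl3, Myh6, Tnni3, Tnnt2 and Actc1, reached 72000 to 88600 CPM, in a tissue labelled left ventricle, against 114 to 577 CPM for 7 atrial markers. The younger libraries were more variable, with a common biological coefficient of variation of 0.236 over 11 libraries against 0.106 over the 12 older ones. Libraries also differed in how their deviation from the mean of each gene ranked with exonic length (Spearman rho across genes). This rho was -0.24 to -0.11 in the 4 vehicle libraries of the older start and 0.09 to 0.30 in its air libraries. At the younger start it was -0.21 and -0.28 in vehicle libraries 1 and 2 and -0.35 and -0.30 in nicotine libraries 2 and 5, but 0.19, 0.11 and 0.21 in vehicle library 4 and nicotine libraries 3 and 6.

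Sat1 transcript was highest in mice given vehicle aerosol from 3 months of age, intermediate with nicotine and lowest in air at that age. The vehicle libraries 1 to 4 read 106, 126, 115 and 111 CPM. The nicotine libraries 1 to 4 read 84.8, 86.6, 81.0 and 82.0 CPM, and air libraries 1, 2, 4 and 5 read 70.1, 61.5, 63.4 and 64.5 CPM. The 3 groups did not overlap, and vehicle spread the widest. Taken by pairs, 20.1% of all genes did not overlap between vehicle and air, 3.7% between nicotine and air and 18.8% between nicotine and vehicle. In bulk tissue, more cells of a type and more RNA per cell cannot be told apart.

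In the fit of all 23 libraries these levels gave log2 differences of 0.82 ± 0.25 (SE) for vehicle against air, 0.37 ± 0.25 for nicotine against air and -0.45 ± 0.25 for nicotine against vehicle. The standard error is shared with the more variable younger libraries. With only the 12 libraries of this starting age in the fit, a choice made after the values were seen, the differences were 0.83 ± 0.07, 0.35 ± 0.07 and -0.47 ± 0.07. The 3 comparisons share control libraries. The authors' deposited table of nicotine against air gave Sat1 a log2 fold change of 0.36 with an adjusted p = 0.00153, which ranked 15 of its 43 genes under 0.05. That p describes how Sat1 entered the authors' list and is no further evidence here.

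**Figure D1:**
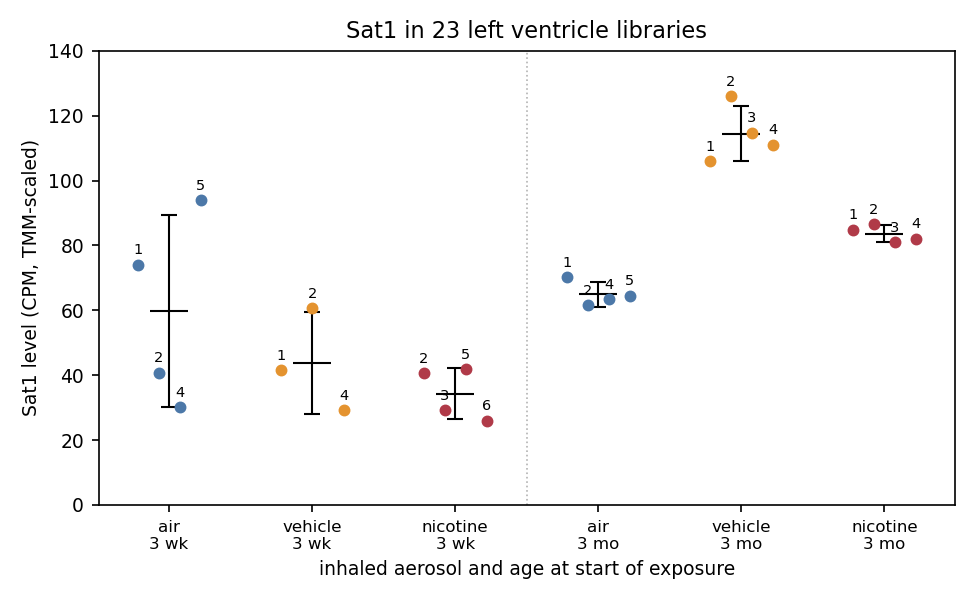
Sat1 level (CPM with TMM scaling, vertical axis) in each of the 23 libraries by inhaled aerosol and starting age. Points are libraries with their number, and black bars are the mean ± SD of 3 or 4 libraries. The 3 older groups form separate bands between 61.5 and 126 CPM, while the younger groups overlap between 26.0 and 94.0 CPM.

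At the younger start the order of the group means was different, and the groups overlapped. Air libraries 1, 2, 4 and 5 read 74.1, 40.8, 30.1 and 94.0 CPM. Vehicle libraries 1, 2 and 4 read 41.6, 60.6 and 29.2 CPM, and nicotine libraries 2, 3, 5 and 6 read 40.5, 29.1, 41.8 and 26.0 CPM. Air libraries 1 and 5 were high, whereas air library 4 lay among the lowest nicotine and vehicle libraries. The within-group coefficient of variation of Sat1 was 23.2 to 49.4% in these groups, against 3.09 to 7.39% at the older start.

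The log2 differences of Sat1 at this age were -0.80 ± 0.25 for nicotine against air, -0.45 ± 0.27 for vehicle against air and -0.35 ± 0.27 for nicotine against vehicle. Without air libraries 1 and 5 the first was -0.07 ± 0.21 and the second 0.27 ± 0.22. Those were the air libraries with the highest Sat1, so leaving them out had to raise these differences. It had to raise the differences between ages that follow as well. The difference of the nicotine effect between ages (3 weeks minus 3 months) was -1.16 ± 0.36 and that of the vehicle effect -1.27 ± 0.37, and without air libraries 1 and 5 they were -0.42 and -0.55. Sat1 in air differed by 0.12 ± 0.25 between the ages (3 months minus 3 weeks) with all libraries and by 0.86 ± 0.21 without those 2. In the authors' deposited table for this age, Sat1 stood at -0.81 log2 for nicotine against air with an adjusted p = 0.312. It was outside that table's 138 genes under 0.05.

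Levels of immediate early genes, a set of transcripts that rise quickly after cell stress or tissue handling, varied with Sat1 between libraries. The summed CPM of 19 of them was 2715 to 3780 in older air, 3483 to 4733 in older nicotine and 3682 to 6635 in older vehicle. In younger air it was 2765, 2154, 632 and 3176 in libraries 1, 2, 4 and 5, high in the same libraries 1 and 5 in which Sat1 was high. It was 805 to 2789 in younger vehicle and 588 to 1256 in younger nicotine. Older air library 1 (3780 CPM) exceeded vehicle library 1 (3682 CPM) in this sum, although its Sat1 was 70.1 against 106 CPM. Macrophage markers summed to 219 to 247 CPM in older air, 221 to 269 in nicotine and 229 to 314 in vehicle, and in the older libraries neutrophil markers summed to 4.05 to 19.0 CPM with overlapping groups. In the younger libraries neutrophil markers were at 12.03 and 9.46 CPM in air libraries 1 and 5, in which Sat1 was also high, and at 0.755 to 2.06 CPM in the other 9. At that age, vehicle library 2 and air libraries 1 and 5 had the highest sums of atrial markers, at 577, 422 and 267 CPM. They also had the highest Sat1 of that age, and the other younger libraries held 114 to 173 CPM of atrial markers. Older libraries had 126 to 322 CPM of atrial markers in air, 166 to 236 with vehicle and 169 to 221 with nicotine. Blood and erythroid markers separated some of the groups. They summed to 1090 to 1410 CPM in younger nicotine against 505 to 931 in younger air, with 467 to 2360 in younger vehicle, and to 660 to 893 in older vehicle against 408 to 553 in older nicotine, with 304 to 722 in older air. The part of these genes and cells in the differences of Sat1 and of the other genes was not tested.

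**Figure D2:**
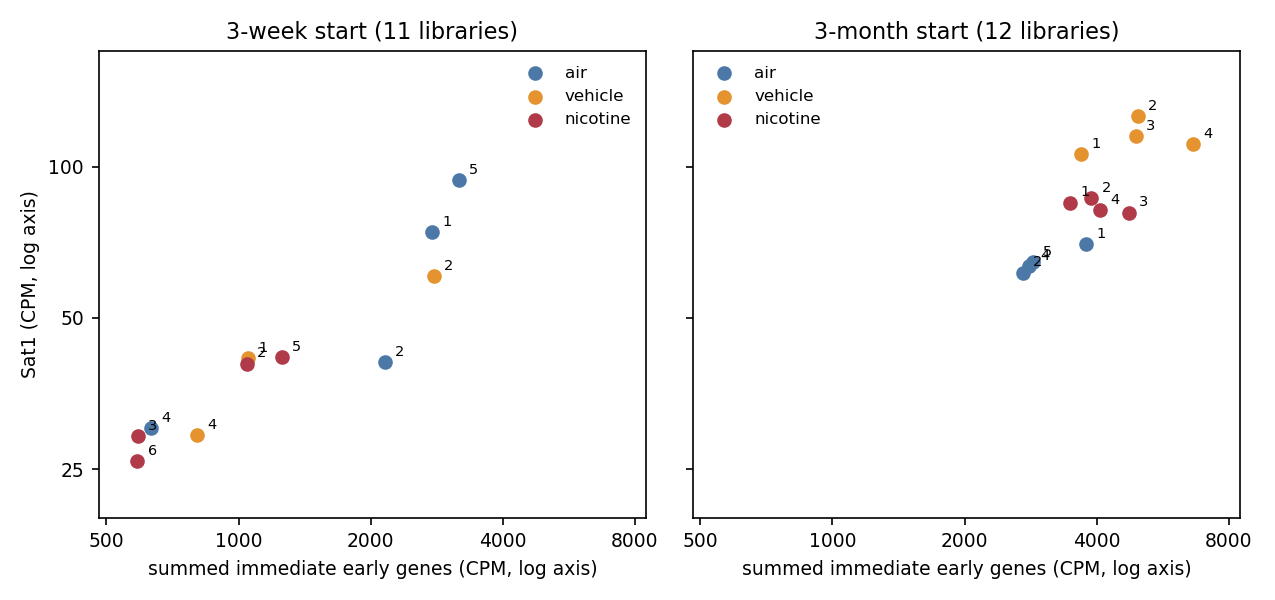
Sat1 level (CPM, vertical log axis) against the summed level of 19 immediate early genes (CPM, horizontal log axis) in the 11 libraries of the younger start (left) and the 12 of the older start (right). Each point is 1 library with its number, coloured by aerosol. Younger libraries run from 588 CPM of immediate early genes with 26.0 CPM of Sat1 to 3176 with 94.0, and older vehicle libraries (Sat1 at 106 to 126 CPM) lie above air and nicotine libraries (61.5 to 86.6 CPM).

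The genes most like Sat1 were ranked by the lower of their 2 Pearson correlations with it in log2 CPM, taken among the 11 younger libraries and among the 12 older ones. Of 11466 genes ranked, the first 8 were Atf3 (0.89), Dusp1 (0.89), Nfkbiz (0.87), Tnfrsf10b (0.87), Ier5 (0.86), Arid5a (0.85), Grasp (0.84) and Lyve1 (0.84). The libraries of an age share their groups and their depth, so these values are a description. Atf3, a stress-induced transcription factor, had group means of 71.7, 171 and 237 CPM in older air, nicotine and vehicle, and 65.5, 5.01 and 8.15 CPM in younger air, nicotine and vehicle. Dusp1, a phosphatase that turns off MAP kinases, was at 336, 376 and 494 CPM in the older groups in the same order. Lyve1, a hyaluronan receptor of lymphatic endothelium and of some resident macrophages, was at 11.1, 13.6 and 16.6 CPM there. Atf3 and Dusp1 are themselves in the immediate early sum. Among the polyamine genes, Smox correlated with Sat1 at 0.83 and 0.43 (younger, older), Odc1 at 0.59 and 0.02, and Sms at -0.28 and -0.81.

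Smox, which oxidises spermine, did not differ past the threshold in any comparison. In younger air libraries 1, 2, 4 and 5 it was at 33.7, 27.0, 28.7 and 37.5 CPM, and in younger nicotine libraries 2, 3, 5 and 6 at 29.0, 20.9, 25.7 and 20.8 CPM. The 2 groups overlapped, with a difference of -0.39 ± 0.14 log2 (adjusted p = 0.219; here and below an adjusted p is that of edgeR's quasi-likelihood test over 15500 genes unless another fit is named). Younger vehicle libraries 1, 2 and 4 were at 33.4, 28.2 and 22.5 CPM (-0.18 ± 0.15 log2 against air, adjusted p = 0.401). At the older start Smox read 21.0 to 29.4 CPM in air, 25.9 to 29.3 in vehicle and 22.6 to 30.5 in nicotine, with differences of 0.17 ± 0.14 against air for both aerosols (adjusted p = 0.563 for vehicle and 1 for nicotine).

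Odc1 transcript had lower means with both aerosols than in air at the younger start, with overlapping groups. Air libraries 1, 2, 4 and 5 read 98.1, 65.4, 53.0 and 109 CPM. Vehicle libraries 1, 2 and 4 read 31.0, 47.2 and 54.6 CPM, and nicotine libraries 2, 3, 5 and 6 read 36.2, 56.4, 44.6 and 47.6 CPM. Air libraries 1, 2 and 5 lay above every aerosol library of this age, while air library 4 lay below vehicle library 4 and nicotine library 3. The change was -0.88 ± 0.21 log2 for vehicle against air (adjusted p = 0.0215) and -0.82 ± 0.19 for nicotine against air (adjusted p = 0.0495). Of the 8 genes other than Sat1, Odc1 was the 1 past the threshold in either comparison. Of all genes tested, 16.2% were called with vehicle (6.92% lower) and 0.813% with nicotine (0.723% lower). Nicotine and vehicle differed by 0.06 ± 0.21 log2 (adjusted p = 0.891).

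Both calls were lost without air libraries 1 and 5, at -0.44 ± 0.20 log2 (adjusted p = 0.318) for vehicle and -0.38 ± 0.19 (adjusted p = 0.93) for nicotine. Those were the air libraries with the highest Odc1, so leaving them out had to make the difference from air smaller. Of 15817 genes tested without them, 0 were called for vehicle and 7 for nicotine. Both calls were also lost when only the 11 libraries of this age were fitted (adjusted p = 0.202 and 0.437), where 0 of 14856 genes were called in either comparison. Leaving out 1 of the 23 libraries at a time kept the call for vehicle in 19 fits and for nicotine in 5 fits. The vehicle call was lost without air library 1 or 5 or vehicle library 1 or 2 (adjusted p = 0.0822, 0.0637, 0.247 and 0.0678). In these fits 0, 170, 0 and 107 of all genes were called for vehicle, against 2509 in the fit of all libraries. The authors' deposited table of nicotine against air gave -0.83 log2 and an adjusted p = 0.0585 for Odc1 at this age.

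At the older start Odc1 was higher with nicotine than in air or vehicle, without passing in the fit of all libraries. Nicotine libraries 1 to 4 read 91.6, 97.7, 93.0 and 126 CPM. Air libraries 1, 2, 4 and 5 read 88.5, 74.0, 81.2 and 70.4 CPM, and vehicle libraries 1 to 4 read 85.4, 76.2, 76.2 and 83.6 CPM. All 4 nicotine libraries lay above all 8 others, with library 4 the highest. Of all genes, 1.99% had nicotine above air without overlap and 12.2% had nicotine above vehicle without overlap. The difference was 0.38 ± 0.19 log2 against air (adjusted p = 1) and 0.34 ± 0.19 against vehicle (adjusted p = 0.427), while vehicle and air differed by 0.03 ± 0.19 (adjusted p = 0.939). With the 12 libraries of this age alone, Odc1 passed against vehicle (0.32 ± 0.10 log2, adjusted p = 0.0334, with 16.6% of 14526 genes called and 10.2% higher) but not against air (0.36 ± 0.10 log2, adjusted p = 0.325, with 0.0482% called). The authors' deposited table gave 0.37 log2 and an adjusted p = 0.202 against air. The difference of the nicotine effect between ages was -1.19 ± 0.27 log2 (adjusted p = 0.0696), with 0.135% of genes called in that contrast, and that of the vehicle effect -0.91 ± 0.28 (adjusted p = 0.238).

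**Figure D3:**
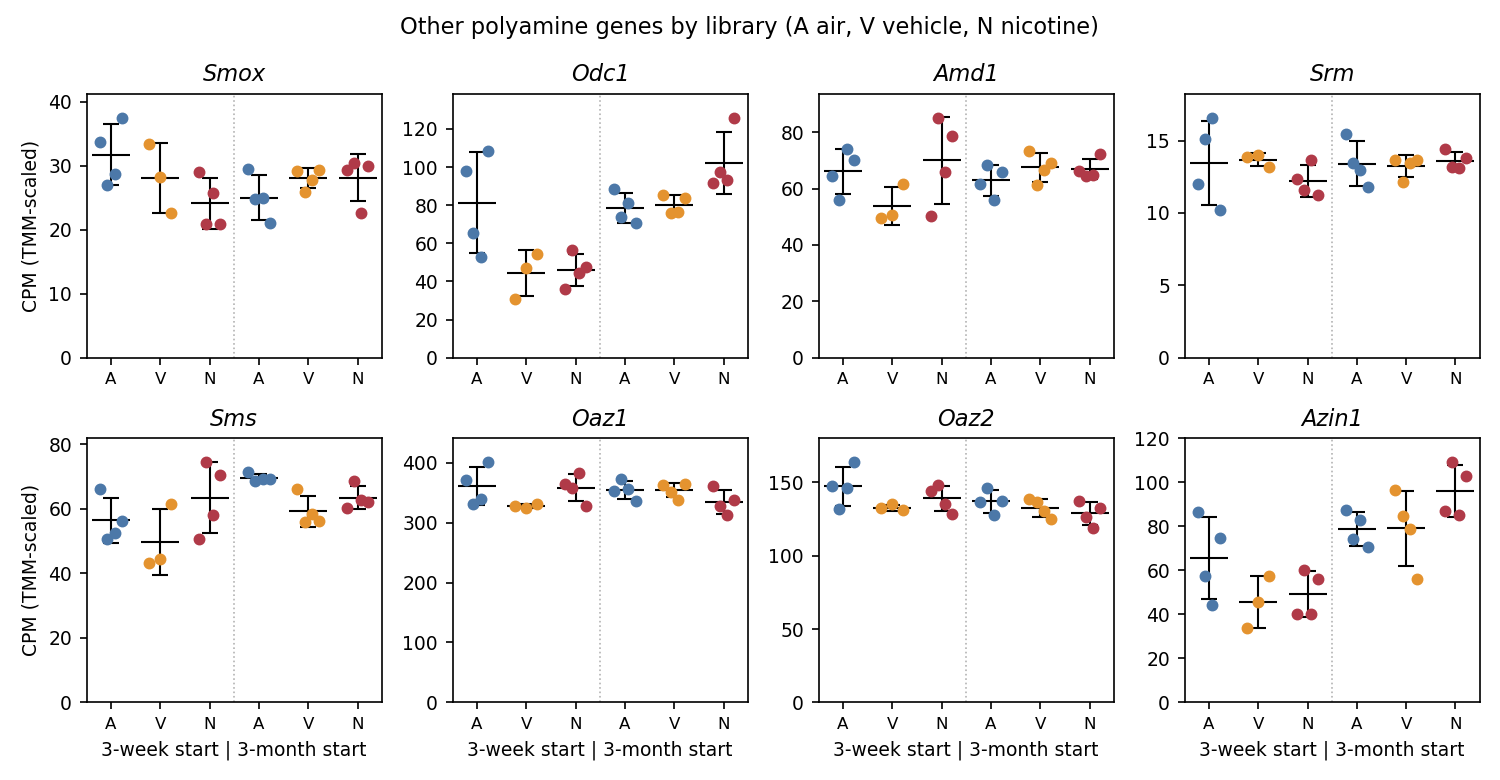
Levels of the other 8 genes (CPM with TMM scaling, vertical axes from 0) by library for air (A), vehicle (V) and nicotine (N), with the younger start left of the dotted line in each panel. Points are libraries and black bars are the mean ± SD. Odc1 is lower with both aerosols at the younger start (means of 44.2 and 46.2 against 81.3 CPM) and highest with nicotine at the older start (102 CPM), while Oaz1 and Oaz2 keep narrow ranges.

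The ratio of Sat1 to Odc1 within a library does not depend on library scaling, and it set the older vehicle group apart. Per kb of exon the ratio was 1.52, 2.03, 1.85 and 1.63 in vehicle libraries 1 to 4, against 0.972, 1.02, 0.958 and 1.12 in air libraries 1, 2, 4 and 5 and 1.14, 1.09, 1.07 and 0.799 in nicotine libraries 1 to 4. The group means were 1.76 ± 0.23 with vehicle, 1.02 ± 0.08 in air and 1.02 ± 0.15 with nicotine. With nicotine the levels of both genes lay above air, while with vehicle those of Sat1 did and those of Odc1 overlapped air. At the younger start the ratio was 0.697 to 1.06 in air, and split within the aerosol groups. It was 1.65, 1.58, 1.38 and 1.15 in vehicle libraries 1 and 2 and nicotine libraries 2 and 5, and 0.657, 0.634 and 0.67 in vehicle library 4 and nicotine libraries 3 and 6. Among the 7 aerosol libraries of this age, the 4 high ones are those with a negative rank correlation of deviation with exonic length, which is 2774 bases for Sat1 and 3405 for Odc1. Air libraries 2, 4 and 5 also had a negative correlation, closer to 0 (-0.06, -0.04 and -0.01), with ratios of 0.765, 0.697 and 1.06. At the older start the correlation was negative in all 4 vehicle libraries (-0.244 to -0.111), the group with the high ratios. It was 0.0902 to 0.305 in older air and 0.0011 to 0.324 in older nicotine. The part of length in the ratio was not tested.

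**Figure D4:**
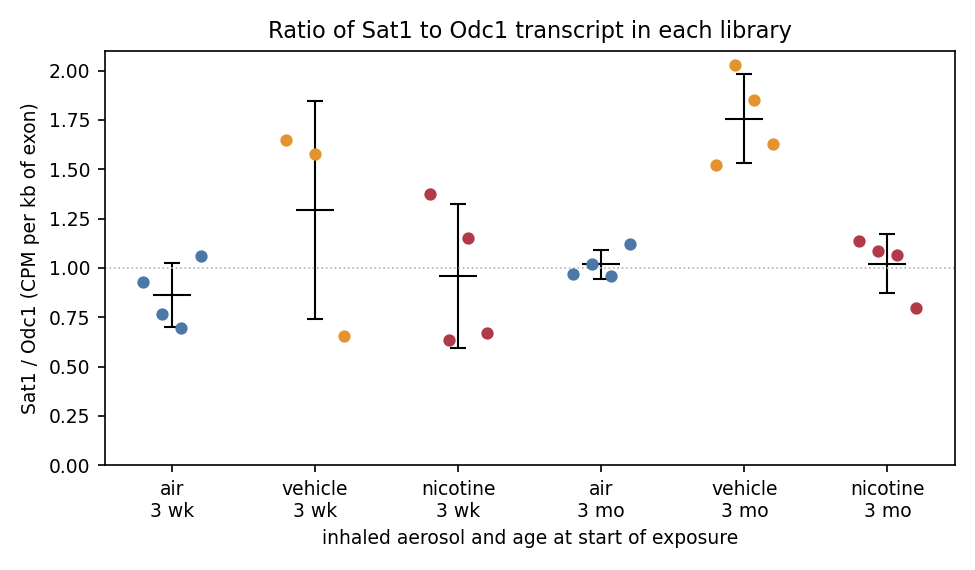
Ratio of Sat1 to Odc1 (both in CPM per kb of exon, vertical axis from 0) in each library by aerosol and starting age. Points are libraries, black bars are the mean ± SD of 3 or 4 libraries, and the dotted line marks a ratio of 1. The 4 older vehicle libraries lie at 1.52 to 2.03, above the 8 older air and nicotine libraries at 0.799 to 1.14.

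The synthases downstream of putrescine differed less from air than Odc1 did at the younger start. With older vehicle the estimate of Sms was larger in size than that of Odc1 (-0.23 ± 0.12 against 0.03 ± 0.19 log2). Sms, which makes spermine, read 71.4, 68.7, 69.2 and 69.2 CPM in older air libraries 1, 2, 4 and 5. It read 66.2, 56.0, 58.4 and 56.4 CPM in vehicle libraries 1 to 4, and 60.2, 68.6, 62.8 and 62.3 CPM in nicotine libraries 1 to 4. Every older air library thus lay above every aerosol library of its age, nicotine library 2 by a narrow margin. Of all genes, 11.6% lay lower without overlap for vehicle against air and 1.71% for nicotine against air. The differences were -0.23 ± 0.12 log2 for vehicle (adjusted p = 0.376) and -0.13 ± 0.12 for nicotine (adjusted p = 1). With the 12 older libraries alone, Sms fell with vehicle (-0.22 ± 0.07 log2, adjusted p = 0.0293, with 18.7% of genes called and 11.1% lower). With an offset for exonic length in the fit of all libraries, the vehicle difference was -0.17 ± 0.10 log2. Sms has the longest exons of the synthesis genes, at 6010 bases, and the older vehicle libraries had the negative length correlations given above. The part of length in the difference of Sms was not tested.

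Among older libraries Sat1 and Odc1 with nicotine (higher) and Sms (lower) did not overlap air, where 3.7% of all genes had groups that did not overlap (1.99% higher and 1.71% lower). The rule that put Sat1 in the authors' list used this comparison. With vehicle, Sat1 (higher) and Sms (lower) did not overlap air, where 20.1% of all genes did so (8.52% higher and 11.6% lower), and between nicotine and vehicle it was Sat1 (lower with nicotine) and Odc1 (higher), where 18.8% did (12.2% higher and 6.66% lower). Of the 8 genes other than Sat1, 0 passed the adjusted threshold in edgeR with all libraries in these 3 comparisons, as did 0 of all genes tested. At an unadjusted p under 0.05 edgeR had 408 genes (2.63%) for nicotine against air, 2200 (14.2%) for vehicle against air and 1889 (12.2%) for nicotine against vehicle, and DESeq2 called 1, 82 and 8 genes after adjustment.

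At the younger start Sms and Amd1 separated libraries rather than groups. Sms was at 66.1, 50.7, 52.4 and 56.4 CPM in air libraries 1, 2, 4 and 5 and at 43.4, 44.4 and 61.6 CPM in vehicle libraries 1, 2 and 4. It was at 50.7, 74.5, 58.1 and 70.4 CPM in nicotine libraries 2, 3, 5 and 6. Amd1, whose decarboxylase supplies aminopropyl groups, was likewise high in vehicle library 4 (61.7 CPM against 49.5 and 50.8) and in nicotine libraries 3 and 6 (85.2 and 78.8 CPM against 50.1 and 66.0). These 3 libraries are those with positive length correlations among the aerosol libraries of this age, and the part of length in these levels was not tested. Nicotine was higher than vehicle by 0.35 ± 0.13 log2 in Sms (adjusted p = 0.184) and by 0.37 ± 0.14 in Amd1 (adjusted p = 0.183), and neither passed. In this comparison 0 genes passed in edgeR, 2992 had an unadjusted p under 0.05 (19.3%) and DESeq2 called 255. Without vehicle library 4 both passed, with Sms at 0.55 log2 (adjusted p = 0.00391) and Amd1 at 0.50 (adjusted p = 0.0183), in a fit that called 4793 of 15829 genes (30.3%).

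In older mice Amd1 lay at 56.0 to 68.3 CPM in air, 61.1 to 73.5 with vehicle and 64.6 to 72.2 with nicotine, and in younger air at 55.8 to 74.1 CPM. Its differences against air were -0.29 ± 0.14 log2 with vehicle (adjusted p = 0.134) and 0.08 ± 0.13 with nicotine (adjusted p = 0.829) at the younger start, and 0.10 ± 0.13 and 0.09 ± 0.13 at the older start (adjusted p = 0.692 and 1). Reads of Amd1 may be shared with its near copy Amd2, which had 42 to 78 counts per library against 673 to 1247 for Amd1. Srm, which makes spermidine, read 10.2 to 16.6 CPM over all libraries. None of its differences was past 0.17 log2 in size (adjusted p of 0.487 or more), and its air libraries at the younger start spanned the whole range.

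Of the regulators, Azin1 resembled Odc1. Younger air libraries 1, 2, 4 and 5 read 86.7, 57.2, 44.1 and 74.5 CPM. Vehicle libraries 1, 2 and 4 read 33.6, 45.5 and 57.6 CPM, and nicotine libraries 2, 3, 5 and 6 read 40.2, 60.3, 40.2 and 56.2 CPM. Air libraries 2 and 4 lay within the range of the aerosol groups, and the differences from air of -0.53 ± 0.22 log2 with vehicle (adjusted p = 0.0885) and -0.42 ± 0.20 with nicotine (adjusted p = 0.39) did not pass. At the older start Azin1 read 70.8 to 87.6 CPM in air, 56.1 to 96.6 with vehicle and 85.2 to 109 with nicotine, the last 0.29 ± 0.20 log2 above air (adjusted p = 1). Exons of Azin1 overlap those of an antisense gene, Gm49077, over 358 bases, and without the strand setting their reads cannot be told apart.

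The antizyme transcripts Oaz1 and Oaz2 were the steadiest of the 9. Oaz1 ran from 314 to 401 CPM over the 23 libraries and Oaz2 from 119 to 164 CPM. Oaz1 was at 327.5, 324.5 and 330.5 CPM in younger vehicle libraries 1, 2 and 4, all below air libraries 1, 2, 4 and 5 at 371.8, 331.8, 340.0 and 401 CPM. That difference was -0.14 ± 0.09 log2 (adjusted p = 0.228), and Oaz1 was the 1 of the 9 genes whose groups did not overlap there, where 9.25% of all genes did so (4.19% lower). No antizyme difference in any comparison was past 0.15 log2 in size. Reads of Oaz1 may be shared with the pseudogene Oaz1-ps (30 to 84 counts) and with the microRNA gene Mir1982, which overlaps it over 74 bases.

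**Figure D5:**
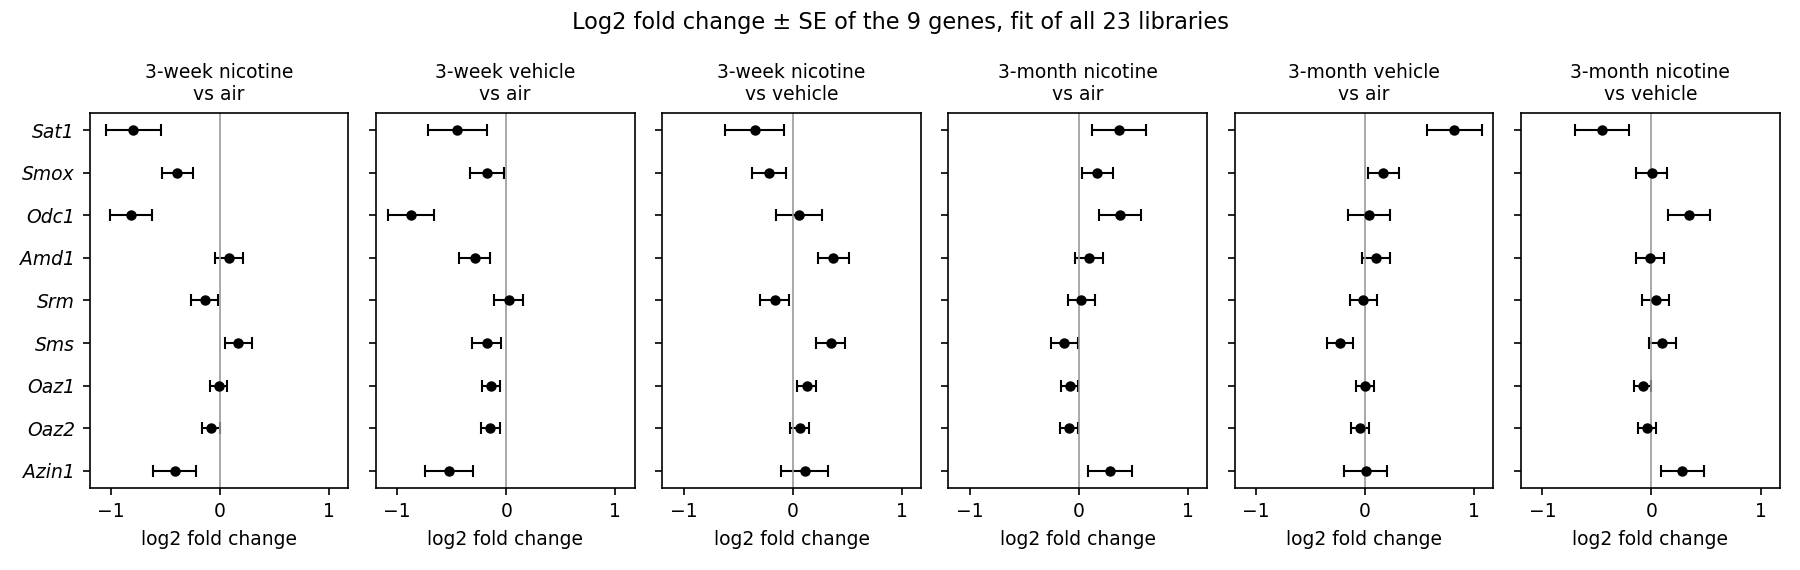
Log2 fold change (horizontal axes) of the 9 genes in the 6 comparisons within a starting age, from 1 fit of all 23 libraries. Points are estimates and bars ± SE, and 0 is no difference. Sat1 lies at -0.80 with younger nicotine and at 0.82 with older vehicle, Odc1 at -0.82 and -0.88 with both younger aerosols, and Oaz1 and Oaz2 stay within 0.15 of 0.

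Between the ages in air, 0 of the 8 genes other than Sat1 passed, where 0.00645% of all genes were called. Sms was higher at the older start by 0.30 ± 0.12 log2 (adjusted p = 0.435), with all 4 older air libraries (68.7 to 71.4 CPM) above the 4 younger ones (50.7 to 66.1 CPM). It was the 1 gene of the 9 whose groups did not overlap, where 5.01% of all genes did so (2.15% higher). Smox was lower by 0.34 log2 (-0.34 ± 0.14, adjusted p = 0.458). For the vehicle effect between the ages, 0 genes passed in edgeR, 1861 had an unadjusted p under 0.05 (12%) and DESeq2 called 66. For the nicotine effect 0 of the 8 genes other than Sat1 passed.

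Over the 9 genes the median log2 difference was -0.14 for nicotine and -0.18 for vehicle against air at the younger start, beside 0.02 over all genes in each, and 0.09 and 0.00 at the older start, beside 0.01 in each. Outside the 9, 33 further genes of polyamine transport, ornithine and methionine supply, oxidation and hypusine synthesis were listed, and 27 were tested. Aoc1, Slc22a2, Arg1, Arg2, Oaz3 and Mat1a had 0 to 10 counts in any library and were not tested. In younger vehicle against air, 4 of the 27 fell, where 6.92% of all genes were called lower and 9.27% higher, and in the other comparisons of the fit of all libraries 0 of the 27 passed. The median of the 27 in younger vehicle was -0.21 log2, beside 0.02 over all genes. In younger nicotine against air that median was 0.08, beside 0.02 over all genes. At the older start it was -0.07 with vehicle and 0.01 with nicotine, beside 0.01 in each.

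Slc7a1, the cationic amino acid transporter that imports arginine, fell most, by 1.14 on the log2 scale (adjusted p = 0.0236). It was at 33.2, 28.9 and 47.8 CPM in vehicle libraries 1, 2 and 4, all below air libraries 1, 2, 4 and 5 at 98.6, 54.6, 56.9 and 114 CPM. In that comparison 9.25% of all genes had groups that did not overlap (4.19% lower). Air libraries 1 and 5 were the highest for Slc7a1, as they were for Sat1 and Odc1. Its nicotine libraries 2, 3, 5 and 6 read 21.5, 52.4, 31.7 and 49.0 CPM (-1.07 ± 0.26 log2 against air, adjusted p = 0.0561). Mat2a, which makes S-adenosylmethionine, fell by 0.64 log2 in younger vehicle (-0.64 ± 0.19, adjusted p = 0.0324). Slc3a2, the heavy chain of several amino acid transporters, changed by -0.55 ± 0.17 log2 (adjusted p = 0.0371), and Oat, the mitochondrial ornithine aminotransferase, by -0.47 ± 0.14 (adjusted p = 0.0321). With only the 11 libraries of this age in the fit, 0 of 26 such genes passed and 0 of all 14856 genes tested.

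At the older start, fitted on its 12 libraries alone, 3 of 26 pathway genes passed for vehicle against air. Mri1, of methionine salvage, rose by 0.44 ± 0.11 log2 (adjusted p = 0.0111), while Mtr, methionine synthase, changed by -0.51 ± 0.16 (adjusted p = 0.042) and the cation transporter Slc22a3 by -0.33 ± 0.11 (adjusted p = 0.0456). Between nicotine and vehicle, Slc7a1 (0.64 ± 0.16 log2, adjusted p = 0.0176) and Mtr (0.66 ± 0.16, adjusted p = 0.0151) were higher with nicotine. For nicotine against air 0 of the 26 passed in that fit. The shares of all genes called were those given above, 18.7%, 16.6% and 0.0482%.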

How the data were processed

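For 23 libraries the authors deposited raw counts of each gene, without normalization. The submitters' processing notes name STAR 2.5.2b, Trimmomatic 0.36, DESeq2, and featureCounts with Subread 1.5.2. Build, annotation and strand were not given in the sources used here. The authors' deposited comparison tables hold log2 fold changes and p-values of nicotine against air. Per the file headers they have a signal column for each air and nicotine library, which served to check those columns of counts. The vehicle columns could not be checked this way and rest on the names alone. Each column of counts matched a library by name, and 0 did not. A deposited gene ontology table names no comparison and was not used. GENCODE vM21 gave symbols and exonic lengths (48970 gene IDs matched), and 7 of the 9 genes had a RefSeq promoter entry.

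Counts were analysed with edgeR 4.0.16 in R 4.3.3: filterByExpr at a minimum count of 10 (15500 of 49315 genes), TMM scaling and 1 robust quasi-likelihood fit of 6 groups with 17 residual degrees of freedom. Benjamini-Hochberg adjustment ran over all genes tested, with a threshold of 0.05. The scripts were tested on simulated data. Alternatives were DESeq2 1.42.0, other scalings, no filter, an exonic length offset, a replicate block, fits on fewer libraries and leaving out each library. Levels are CPM, and counting error alone does not set their spread. The 9 genes, the pathway list, the marker lists and the alternatives were chosen with earlier results of these data known. All 9 genes were described in every group. Of the other pathway genes, up to 6 past the threshold with the smallest p were named per contrast, and the 8 genes most like Sat1 by correlation were named. The fits within a starting age were chosen after the values were seen. Chi-square values over 33 pairs of libraries of the same group found no library deposited more than once within a group. Libraries of different groups were not compared in this way. The result of 1 pathway gene is not reported here.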

Additional observations from a re-analysis of the deposited data

Results flagged for a closer look

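Among 70 groups of values tested over 14 genes (the 9 and 5 others of the pathway) for a single outlying library, 2 stood apart by Dixon's criterion, which flags about 1 in 20 groups by chance. Smox in older nicotine library 3 was at 22.6 CPM, below the other 3 libraries at 29.3 to 30.5 CPM. Srm in older vehicle library 2 was at 12.2 CPM, below the other 3 libraries at 13.5 to 13.7 CPM.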

How the results depend on the processing

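The number of the 9 genes past the adjusted threshold depended on which libraries entered the fit; where it includes Sat1 it is a description. For younger nicotine against air it was 1 (Odc1), but 0 under upper-quartile scaling, the length offset, the replicate block, the fit of the 2 groups alone, the fit of that age alone and without air libraries 1 and 5, and 2 with DESeq2 (Odc1 and Sat1). For younger vehicle against air it was 1 (Odc1), but 0 under the replicate block, in both smaller fits, without air libraries 1 and 5 and without vehicle libraries 1 and 2, where the lone vehicle library is assumed to vary like the other groups. For older vehicle against air it was 0, but 2 in both smaller fits (Sat1 and Sms), and for older nicotine against vehicle 0, but 2 in both (Sat1 and Odc1). In air between ages it was 0, but 1 (Sat1) without younger air libraries 1 and 5. For the nicotine effect between ages it was 0, but 1 (Odc1) with DESeq2 or without younger vehicle libraries 1 and 2. With 1 library left out at a time the counts ran from 0 to 2 (younger nicotine against air), 0 to 4 (younger vehicle against air), 0 to 2 (younger nicotine against vehicle), 0 to 2 (nicotine effect) and 0 to 1 (vehicle effect). The count of 4 arose without younger vehicle library 4, in a fit that called 6969 of 15829 genes (44%). That fit also gave the 2 of younger nicotine against vehicle, with 4793 genes called (30.3%). The counts of 2 for younger nicotine against air and for the nicotine effect arose without younger air library 4, with 2.43% and 1.29% of genes called. The 1 of the vehicle effect arose without younger air library 4 (0.459% called) or younger vehicle library 4 (9.3%). For older nicotine against air 0 passed under every setting run. Of 2646 alternative fold changes, 62 moved by 1 SD or more, and 0 changed sign from a called value. The cause was not tested.

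Over all genes, the calls for younger nicotine against air numbered 126, and 465 with DESeq2, 65 under upper-quartile scaling, 76 without the filter, 1 in the fit of its 2 groups, 0 in that of its age, 7 without air libraries 1 and 5 and 206 without vehicle libraries 1 and 2. For younger vehicle against air they numbered 2509, and 1279 without the filter and 0 in both smaller fits and without either pair of libraries. With 1 library left out these counts ran from 1 (without air library 1 or nicotine library 2) to 377 (without air library 4) for nicotine, and for vehicle from 0 (without air library 1 or vehicle library 1), 107 (without vehicle library 2) and 170 (without air library 5) to 6969 (without vehicle library 4). In the fit of the 2 groups alone, older vehicle against air went from 0 to 2635 and older nicotine against vehicle from 0 to 2247, and the nicotine effect between ages went from 21 to 201 with DESeq2. In air between ages it went from 1 to 849 without younger air libraries 1 and 5. The calls for younger vehicle against air were 57.3% higher genes, but 49.4% under RLE scaling, 66.9% under upper-quartile scaling and 45.2% with DESeq2. Over 16 pairs of libraries with the same replicate number, the correlation of deviations ran from -0.37 to 0.283. The 3 pairs over 0.1 were all of the younger start. They were nicotine library 2 with air library 2 (0.234) and with vehicle library 2 (0.283), and nicotine library 5 with air library 5 (0.109). With 3 or 4 libraries per group, these values cannot decide whether the numbers mark pairs. With the replicate block, 0 of the 9 genes and 0 of all genes passed in either younger comparison with air. Depth gave 141 or more counts to each gene in each library.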
